A study of Homo sapiens with 4 samples.

Results

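HSPA1A, HSPA1B, HSPH1 and BAG3 are stress-inducible genes of the cytosolic chaperone system, and their transcript levels were measured in LS411N-5FU-R, a line derived from the metastatic human colon carcinoma line LS411N and selected for resistance to 5-fluorouracil. The 4 genes, out of 14884 named genes on the array, were selected on their log2 difference between these same samples and taken by their symbol in the platform annotation, and 12 of the table's 53617 probe sets carry one of these symbols. Their differences between the groups are therefore a description, and no test of them is printed. Verticillin A, an epipolythiodioxopiperazine metabolite of fungi, was present at 50 nM for 3 days in 2 samples, and 2 control samples were cultured for 3 days without it (0 nM). Samples of both groups were of the same resistant line, grown in RPMI medium with fetal bovine serum. Whether 5-fluorouracil was in the medium, or a solvent in the control, is not given in the sources used here.

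HSF1, the main heat shock transcription factor, is held inactive by chaperones while proteins are folded. When unfolded protein accumulates, HSF1 trimerises, binds heat shock elements, which are inverted repeats of the unit GAA, and induces HSPA1A, HSPA1B, HSPH1, BAG3 and other chaperone genes. HSPA1A and HSPA1B encode practically the same inducible HSP70 protein and lie next to each other in the class III region of the major histocompatibility complex. HSPH1 (HSP105) exchanges the nucleotide of HSP70 and also prevents aggregation, and BAG3 is an exchange factor that routes HSP70 clients to autophagy. In many carcinoma lines these genes are also expressed without an added stress.

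The upstream sequence of the HSP70 pair is shown because it holds the paired unit of a heat shock element, and because it shows how alike the copies are outside the coding part. In both sequences the first stretch of capitals is the paired unit GAANNTTC and the second is the TATA box TATAAA. They are the 250 bases before the annotated start site, taken from RefSeq on build GRCh38.p14, plus strand, at chr6:31815293-31815542 for HSPA1A and chr6:31827488-31827737 for HSPA1B.
HSPA1A: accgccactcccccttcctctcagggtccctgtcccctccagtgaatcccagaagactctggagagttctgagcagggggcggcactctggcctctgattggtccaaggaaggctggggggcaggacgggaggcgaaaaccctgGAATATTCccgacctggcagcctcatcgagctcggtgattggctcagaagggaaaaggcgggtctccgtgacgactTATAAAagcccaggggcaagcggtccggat
HSPA1B: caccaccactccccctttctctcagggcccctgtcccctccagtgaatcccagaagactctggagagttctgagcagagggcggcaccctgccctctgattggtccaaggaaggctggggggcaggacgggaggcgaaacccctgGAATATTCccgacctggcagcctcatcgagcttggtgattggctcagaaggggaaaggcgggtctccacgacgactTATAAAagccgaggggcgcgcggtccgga
The 2 sequences were identical at 235 of 251 aligned positions (93.6%), counting 2 gap positions. The paired unit began 106 bases before the start site of HSPA1A and 105 before that of HSPA1B, and the TATA box began 30 and 29 bases before it. The pentamer CCAAT was found on the opposite strand at 153 and 69 bases before the start of HSPA1A and at 152 and 68 before that of HSPA1B. Searched on both strands in the 250 bases before each start, GAANNTTC was present in 5.78% of 35116 windows, TATAAA in 10.7% and CCAAT in 32.0%. In the windows of HSPH1 and BAG3 none of these letters was found, nor TTCNNGAA, the outward pairing, which 6.62% of windows held. The 3-unit forms GAANNTTCNNGAA and TTCNNGAANNTTC, which contain the paired ones, were in 0.441% of windows and in none of the 4 genes' windows. These are letter matches in 1 annotated window per gene and do not describe binding.

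**Figure D1:**
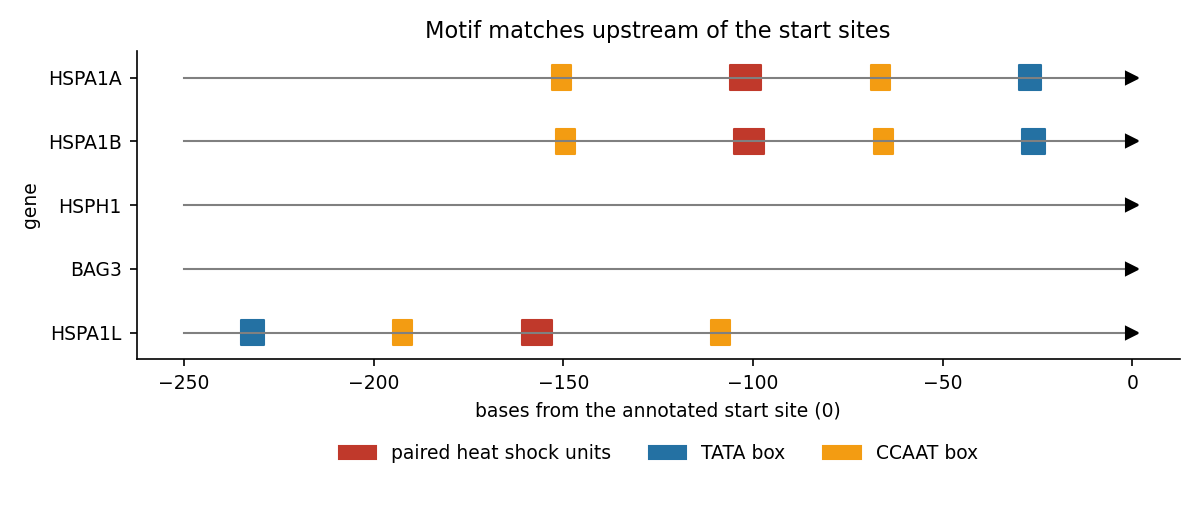
Matches upstream of the start sites of HSPA1A, HSPA1B, HSPH1, BAG3 and HSPA1L, in bases from the start (0, arrowhead); red blocks are the paired heat shock units, blue the TATA box and orange CCAAT. HSPA1A and HSPA1B show the same order of blocks, HSPA1L shows that of HSPA1A mirrored, and HSPH1 and BAG3 show none.

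With verticillin A the 2 HSP70 genes were about 2.4-fold to 2.5-fold higher, and HSPH1 and BAG3 about 1.6-fold higher. HSPA1A had log2 values of 10.39 and 10.40 in the verticillin A samples, against 8.98 and 9.20 in the control samples. Its mean was 10.40 ± 0.01 with verticillin A and 9.09 ± 0.16 in control (SD, n = 2 each), a log2 change of 1.30 ± 0.09 (SE of the limma fit) or 2.47-fold. The treated samples were nearly the same and both lay far above both control samples, which differed from each other by 0.22. HSPA1B was at 10.48 and 10.55 with verticillin A, against 9.10 and 9.36 in control. That is a log2 change of 1.29 ± 0.10 (SE), or 2.44-fold, and the groups again did not overlap. The second control sample was the higher one for both genes, by 0.22 and 0.26, where the median absolute difference between the control arrays over all probe sets was 0.118. The wider spread of the pair thus lay in the control group, with SDs of 0.01 and 0.05 with verticillin A and 0.16 and 0.18 in control.

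HSPH1 had log2 values of 11.26 and 11.25 in verticillin A samples and 10.54 and 10.52 in control samples. The samples of each group lay close together (SD 0.01 with verticillin A and 0.01 in control), and the log2 change was 0.72 ± 0.07 (SE), or 1.65-fold. BAG3 was at 8.42 and 8.47 with verticillin A and at 7.73 and 7.82 in control. Its groups were also apart, with a log2 change of 0.67 ± 0.07 (SE), or 1.59-fold. Ordered from the largest rise to the deepest fall over the 14884 genes, HSPA1A stood at position 12, HSPA1B at 13, HSPH1 at 74 and BAG3 at 104. Both verticillin A samples exceeded both control samples in all 4 genes, an arrangement found in 25.7% of all genes, and nothing is read from this count because the comparison chose the genes. The RNA came from whole cultures, so more cells with a transcript and more transcript per cell cannot be told apart.

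The copies of the pair cannot be separated with these data. HSPA1A and HSPA1B had 5 probe sets each, whose probes may bind RNA of either gene. Over the 5 probe sets of HSPA1A the log2 change ran from 1.28 to 1.30, and 3 of them had the same value in every array. Over those of HSPA1B it ran from 1.18 to 1.30, or 2.27-fold to 2.46-fold. In each of these 10 probe sets both verticillin A samples lay above both control samples. All probe sets of the pair lay between 9.94 and 10.55 with verticillin A and between 8.61 and 9.36 in control. The 10 changes may be repeated readings of the same RNA and are not counted as replicates. HSPH1 and BAG3 had 1 probe set each.

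**Figure D2:**
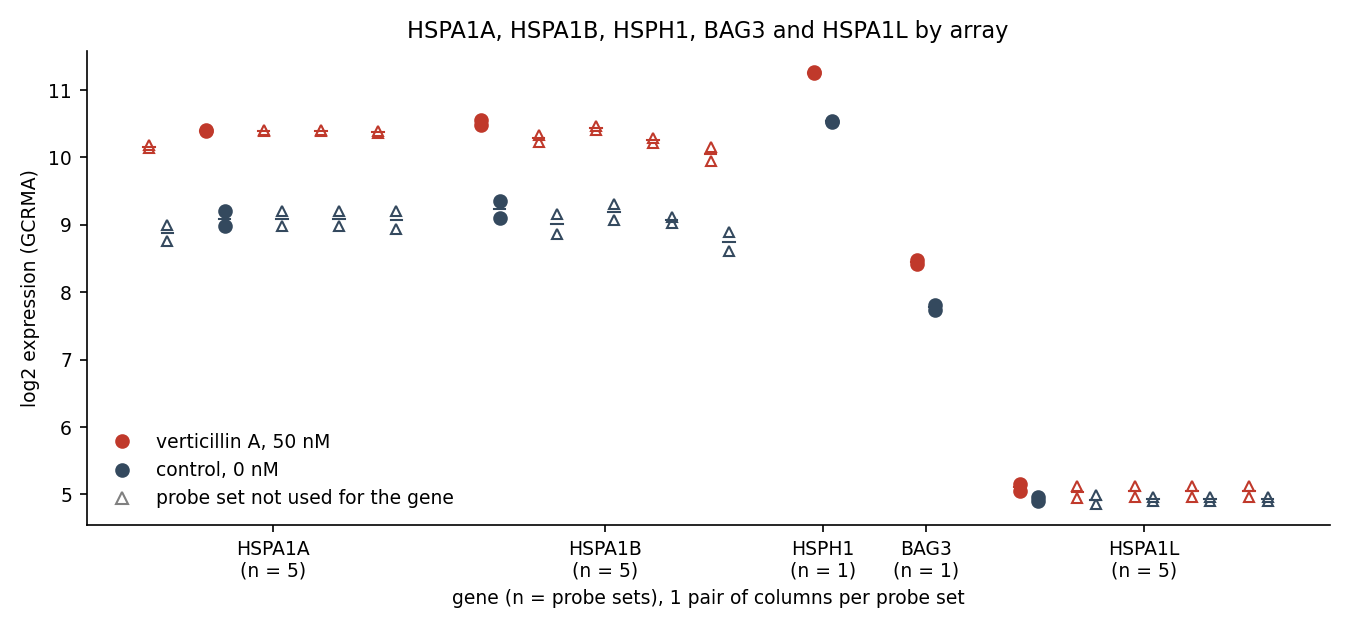
Log2 expression in each array for every probe set of HSPA1A, HSPA1B, HSPH1, BAG3 and HSPA1L; each mark is 1 array, with verticillin A (red, left) and control (dark, right), short lines are the means of 2 arrays, and open triangles are probe sets not used for the gene. All probe sets of the HSP70 pair show the groups apart by 1.18 to 1.30, while those of HSPA1L lie between 4.86 and 5.15 in both groups.

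HSPA1L, which encodes a testis-enriched HSP70, is transcribed away from HSPA1A on the opposite strand, with 259 bases between their start sites. The 250-base windows of the 2 genes share 241 bases, so the sequence printed for HSPA1A, paired heat shock unit included, also lies upstream of HSPA1L. HSPA1L had log2 values of 5.06 and 5.15 with verticillin A and 4.97 and 4.91 in control, and its change of 0.17 ± 0.07 (SE) did not pass (limma adjusted p = 0.222). Over its 5 probe sets the change ran from 0.11 to 0.17. The levels of HSPA1L lay little above the array medians of 4.59 to 4.62, and without detection calls they may be largely background. On the far side of the pair, the measured neighbours were NEU1, the lysosomal sialidase gene, with a change of 0.13 ± 0.09 (adjusted p = 0.446), and EHMT2, an H3K9 methyltransferase gene, with 0.22 ± 0.07 (adjusted p = 0.116). EHMT2 passed with the dimmest 50% of genes left out (adjusted p = 0.0373). That setting called 1070 genes higher and 1329 lower, against 528 and 759 in the main fit. Next to HSPH1, TEX26 and RXFP2 had changes of -0.014 ± 0.066 and -0.13 ± 0.08, and beside BAG3, TIAL1 and INPP5F had 0.015 ± 0.070 and -0.040 ± 0.074. In all, 0 of the 18 measured genes standing up to 3 places to either side of the 4 genes passed in limma. Of the 18, 3 had an unadjusted p under 0.05, as had 3970 of all 14884 genes, of which 3.55% were called higher and 5.10% lower. The log2 changes of the 18 ran from -0.15 to 0.37. The largest was that of VWA7, on the HSPA1L side of the pair (0.37 ± 0.08, limma adjusted p = 0.0521).

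Other genes of the HSP70 and HSP110 family moved in both directions. Of 14 listed besides HSPA1A, HSPA1B and HSPH1, 11 were measured, and 2 rose, 1 fell and 8 did not pass in limma. Over all genes 3.55% were called higher and 5.10% lower. The median log2 change of the 11 was 0.17, beside -0.01 over all genes. HSPA2, an HSP70 best known from the male germ line, was at 5.39 and 5.32 with verticillin A and 4.45 and 4.62 in control. It rose by 0.82 ± 0.09 (limma adjusted p = 0.0118). Its control values lay near the array medians of 4.59 to 4.62, and without detection calls such values cannot be told from background. HSPA4L, a relative of HSPH1 in the HSP110 branch, was at 10.31 and 10.32 with verticillin A and 9.86 and 9.87 in control (0.45 ± 0.07, adjusted p = 0.0224). HYOU1, the HSP110 relative of the endoplasmic reticulum, was the one that fell, with 8.57 and 8.64 in verticillin A samples against 8.96 and 9.06 in control samples (-0.41 ± 0.07, adjusted p = 0.0361). With its probe sets averaged HYOU1 did not pass (-0.22, adjusted p = 0.162). Leaving out single arrays gave 0.74 to 0.90 for HSPA2, 0.44 to 0.45 for HSPA4L and -0.45 to -0.36 for HYOU1. Such a fit has 1 array left in a group and called few genes or none anywhere, so its calls are not given.

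HSPA6, an HSP70 that in human cells is expressed almost only after strong heat or proteotoxic stress, was at 4.29 and 4.31 in verticillin A samples and 4.38 and 4.42 in control samples. Its change of -0.11 ± 0.07 did not pass (limma adjusted p = 0.399), and both its values with verticillin A lay below both control values. These values are below the array medians of 4.59 to 4.62, and without detection calls a value this low cannot be told from background. The 250 bases before its start site hold a 3-unit heat shock element. The nearby HSPA7, a transcribed pseudogene close to HSPA6 in sequence, had a change of 0.09 ± 0.07. HSPA4, of the HSP110 branch, at 0.25 ± 0.07 (adjusted p = 0.0907), and HSPA14, the ribosome-bound HSP70, at 0.19 ± 0.07 (adjusted p = 0.133), did not pass. Nor did HSPA9, the mitochondrial HSP70, at -0.27 ± 0.07 (adjusted p = 0.0851), or the divergent members HSPA12A and HSPA12B at 0.29 ± 0.07 and -0.33 ± 0.14. With the dimmest 50% of genes left out, HSPA4, HSPA9, HSPA12A and HSPA14 passed in these directions. HSPA1L, HSPA2, HSPA6, HSPA7 and HSPA12B were not tested there. That setting called 1070 genes higher and 1329 lower, against 528 and 759 in the main fit. With its probe sets averaged HSPA12A had 0.068 (adjusted p = 0.604). HSPA12B had -0.53 without verticillin A replicate 1 and -0.14 without verticillin A replicate 2. HSPA5, HSPA8 and HSPA13 were not analysed here.

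BAG3 is 1 of 6 genes of the BAG family, which share the domain that binds HSP70, and 5 were measured. Of the other 4, 0 passed in limma, with 1 (BAG1) at an unadjusted p under 0.05. For scale, 3.55% of all 14884 genes were called higher, 5.10% lower, and 3970 had an unadjusted p under 0.05. BAG1, which links HSP70 to the proteasome, had a log2 change of -0.19 ± 0.07 (adjusted p = 0.167), and BAG2, an inhibitor of the ubiquitin ligase CHIP, 0.06 ± 0.07. BAG4 and BAG5 had -0.07 ± 0.07 and -0.06 ± 0.07. The median of the 4 was -0.06. Whether BAG3 differed from them was not tested. Of 14 listed proteins that act with BAG3 in chaperone-assisted autophagy, 7 were measured, 0 rose and 1 fell, where 3.55% of all genes were called higher and 5.10% lower, and nothing is read from so small a count. It was MAP1LC3B, the autophagosome protein LC3B, with 7.16 and 7.17 in verticillin A samples against 7.65 and 7.84 in control samples (-0.58 ± 0.09, adjusted p = 0.0235). Leaving out single arrays gave MAP1LC3B changes of -0.68 to -0.49. The autophagy receptor gene SQSTM1 had a change of 0.24 ± 0.07 (limma adjusted p = 0.0983). SQSTM1 passed as higher with the dimmest 50% of genes left out (adjusted p = 0.0304). The median of the 7 was 0.08. Leaving out single arrays moved this median between 0.0067 and 0.15, the lowest without control replicate 1 and the highest without control replicate 2.

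**Figure D3:**
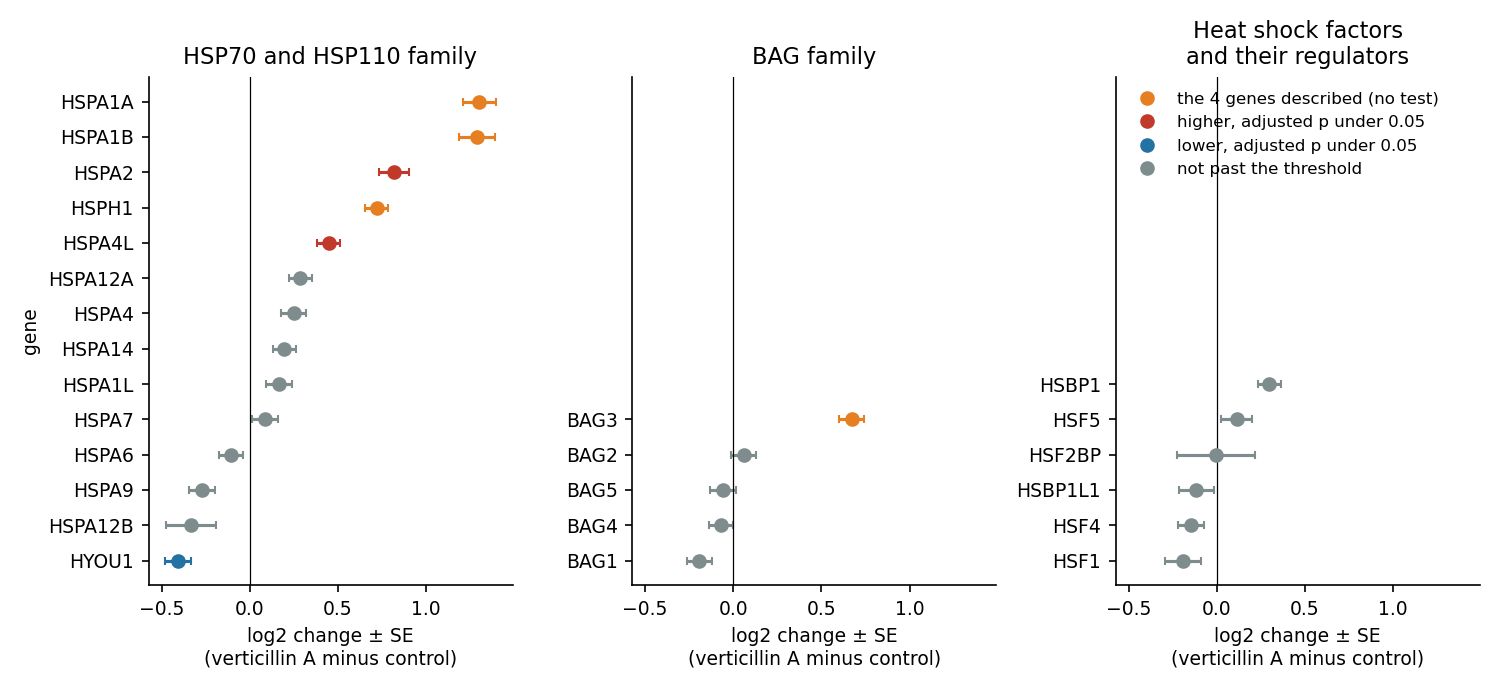
Log2 change (verticillin A minus control) with its standard error for the measured genes of the HSP70 and HSP110 family, the BAG family, and the heat shock factors and their regulators. HSPA1A, HSPA1B, HSPH1 and BAG3 (orange, no test) lie at 0.67 to 1.30, HSPA2 and HSPA4L passed upward, HYOU1 passed downward, and the genes in grey did not pass.

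Transcripts of the heat shock factors themselves were not called. Of 6 measured genes in this group, 0 passed in limma, with 1 (HSBP1) at an unadjusted p under 0.05. Among all 14884 genes 3.55% were called higher, 5.10% lower, and 3970 had an unadjusted p under 0.05. The median log2 change of the 6 was -0.06 (-0.20 without control replicate 1 and 0.015 without control replicate 2). HSF1 was at 7.35 and 7.40 with verticillin A and 7.44 and 7.69 in control, a change of -0.19 ± 0.10 (adjusted p = 0.304). It was -0.31 without control replicate 1 and -0.07 without control replicate 2. HSF1 is regulated mainly at the protein level, which these arrays do not measure. HSF4, a lens heat shock factor, had -0.15 ± 0.07, and HSF5, a factor of the male germ line, 0.11 ± 0.09. HSBP1, whose product binds HSF1 trimers, stood close to the threshold at 0.30 ± 0.07 (adjusted p = 0.0545), and its relative HSBP1L1 had -0.12 ± 0.10. HSBP1 passed after quantile normalization (adjusted p = 0.0475) and median centring (adjusted p = 0.0411). HSF2BP, whose product binds HSF2, was at 4.81 and 4.83 with verticillin A, between its values of 4.48 and 5.17 in control. HSF2 was not analysed here.

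Of 18 listed genes of HSP90 and its cochaperones 10 were measured, and 5 rose, 0 fell and 5 did not pass, where 3.55% of all genes were called higher and 5.10% lower. The median log2 change of the 10 was 0.31. CACYBP, which binds the ubiquitin ligase component Siah-1 and resembles the HSP90 cochaperone SGT1, was at 8.68 and 8.66 with verticillin A and 8.13 and 8.07 in control (0.57 ± 0.07, limma adjusted p = 0.0158). CHORDC1, an HSP90-binding protein, rose by 0.54 ± 0.07 (adjusted p = 0.0162), and STIP1 (HOP), which bridges HSP70 and HSP90, by 0.51 ± 0.07 (adjusted p = 0.0188). PPID, a cyclophilin of the HSP90 complex, and CDC37, which brings kinases to HSP90, rose by 0.39 ± 0.07 and 0.34 ± 0.07. The steroid receptor cochaperone FKBP5 had -0.27 ± 0.07 (adjusted p = 0.0712) and TRAP1, the mitochondrial HSP90, -0.04 ± 0.09 (adjusted p = 0.826). FKBP5 passed as lower with the dimmest 50% of genes left out (adjusted p = 0.0194). PTGES3, UNC45A and ST13 had 0.28 ± 0.07, 0.17 ± 0.07 and 0.12 ± 0.11 and did not pass. With the dimmest 50% left out PTGES3 passed as higher (limma adjusted p = 0.0173). Over all genes that setting called 1070 higher and 1329 lower, against 528 and 759 in the main fit. Leaving out single arrays moved the median of the 10 between 0.30 and 0.32. The HSP90 genes of the cytosol were not analysed here.

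Of the small heat shock proteins 3 of 9 were measured and 0 passed in limma, with 2 at an unadjusted p under 0.05. Among all 14884 genes 3.55% were called higher, 5.10% lower, and 3970 had an unadjusted p under 0.05. Nothing is read from so small a count. HSPB1 (HSP27) had 12.13 and 12.20 with verticillin A and 11.75 and 11.98 in control, a change of 0.30 ± 0.10 (adjusted p = 0.13), and HSPB3 had -0.22 ± 0.07. Among the J-proteins, which hand clients to HSP70, only SEC63 of 30 listed had a named probe set (-0.40 ± 0.09, limma adjusted p = 0.0528). SEC63 passed with the dimmest 50% of genes left out (adjusted p = 0.0151) and with a mean-variance trend (adjusted p = 0.0053). Over all genes these settings called 1070 and 1067 higher and 1329 and 1361 lower. Among 10 listed chaperonins only HSPD1, the mitochondrial HSP60, had a named probe set (0.16 ± 0.07, limma adjusted p = 0.203). With the mean-variance trend HSPD1 passed as higher (adjusted p = 0.0196). The other listed genes of both groups may be among the unnamed probe sets. For both groups no statement on the family can be made.

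A further list held 19 genes of other function that respond to heat shock or HSF1. Of the 13 measured, 6 rose, 2 fell and 5 did not pass, where 3.55% of all genes were called higher and 5.10% lower. The median log2 change of the 13 was 0.15, and it was 0.069 without control replicate 1 and 0.24 without control replicate 2. HMOX1, the haem oxygenase induced by heat and by oxidants through NRF2, was at 9.51 and 9.54 with verticillin A and 7.99 and 8.11 in control (1.47 ± 0.08, limma adjusted p = 0.00335). CLU, the secreted chaperone clusterin, rose by 0.78 ± 0.07 (adjusted p = 0.0093). JUN, a subunit of the transcription factor AP-1, was at 7.36 in both verticillin A samples and 8.35 and 8.48 in control, a fall of -1.06 ± 0.08 (adjusted p = 0.00689). MORC4, a nuclear ATPase, had -0.90 ± 0.07 (adjusted p = 0.00689). DEDD2, IER5 and MRPL18, named here after their values were seen, rose by 0.62 ± 0.13, 0.45 ± 0.09 and 0.44 ± 0.07, the last a mitochondrial ribosome gene. DEDD2 and IER5 lost their calls after quantile normalization (adjusted p = 0.0522 and 0.0537). CHORDC1, counted in the HSP90 list too, is the sixth. FOS and ATF3 had -0.35 ± 0.08 and -0.43 ± 0.12 and did not pass (limma adjusted p = 0.0537 and 0.0871). UBB, DUSP1 and RBM23, with 0.15 ± 0.08, 0.12 ± 0.10 and 0.03 ± 0.07, did not pass either. Of the 13 changes, 9 were positive and 4 negative. Leaving out single arrays gave 1.41 to 1.53 for HMOX1, -1.12 to -0.99 for JUN, 0.48 to 0.75 for DEDD2 and 0.34 to 0.55 for IER5.

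**Figure D4:**
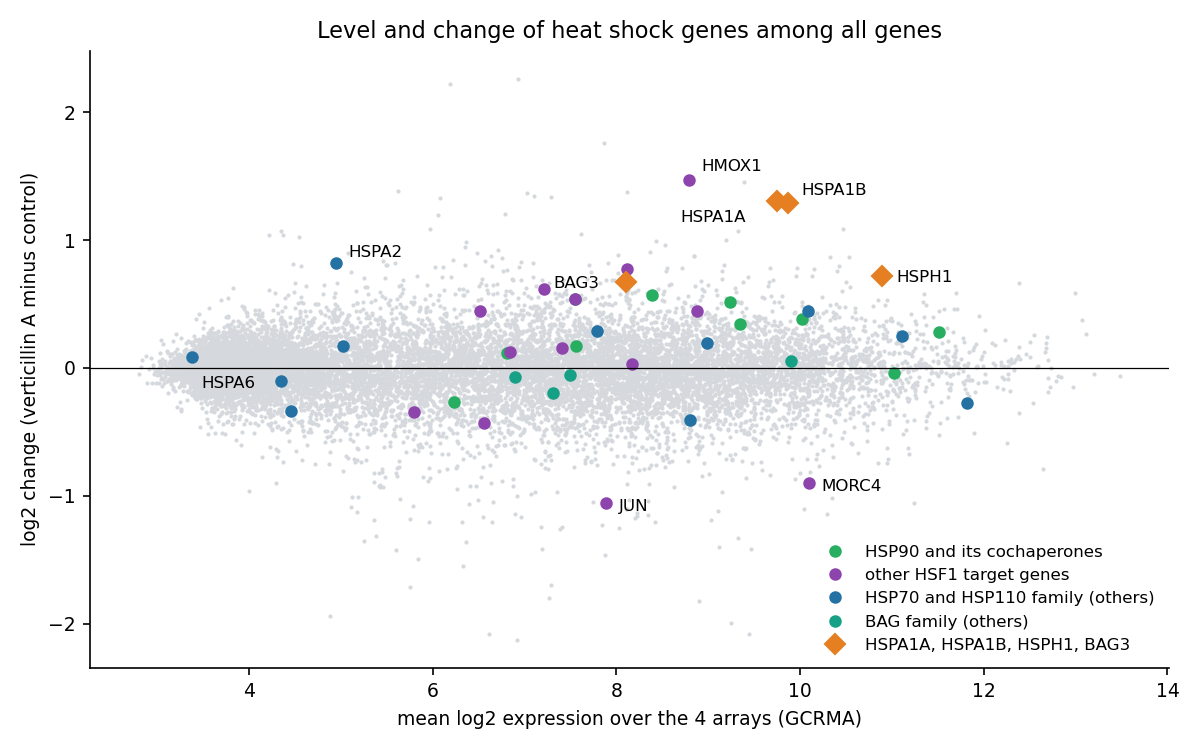
Mean log2 expression over the 4 arrays (x axis) against log2 change (y axis, verticillin A minus control) for all 14884 genes (grey), with the listed chaperone and heat shock genes coloured; CHORDC1 belongs to 2 lists and is drawn as an HSF1 target. The HSP70 pair and HMOX1 lie above 1.28, JUN below -1, and HSPA6 at -0.11; brightness is not comparable between probe sets as transcript amount.

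Counted once each, the 54 measured genes of these chaperone and heat shock lists other than the 4 described gave 12 higher and 4 lower. Their median log2 change was 0.11. Of all 14884 genes 3.55% were called higher and 5.10% lower. The lists were chosen with results of these arrays known and overlap in function, so the counts are a description. Of the 44 among them with a start site window, 4 held a 3-unit heat shock element, namely HSPA6, CHORDC1, HSPD1 and RBM23. Of these only CHORDC1 passed, and RBM23, an RNA-binding protein gene, had a change of 0.03 ± 0.07 (limma adjusted p = 0.836). Among all tested genes, 58 had a 3-unit element, and 4 of them (6.90%) were called higher and 3 (5.17%) lower. Of the 10749 tested genes with a window, 3.75% were higher and 5.30% lower. The 660 genes with a paired unit, the form found in HSPA1A and HSPA1B, had 4.55% higher and 5.76% lower, and a median log2 change near 0 (-0.001). These 660 include HSPA1A and HSPA1B themselves, which were chosen on this comparison.

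The genes whose profile over the 4 arrays, after subtraction of the gene's mean, lay closest to that of HSPA1A were HSPA1B (Euclidean distance 0.0482), NAV3 (0.067), GAS6 (0.108), LINC00640 (0.111) and CD68 (0.172). For HSPA1B the nearest after HSPA1A were GAS6 (0.103), NAV3 (0.109), LINC00640 (0.117) and IGFBP6 (0.151). HSPH1 was nearest to AURKA (0.0537), KIF20A (0.0563), UBL7-DT (0.0609), FTSJ3 (0.0656) and SYTL3 (0.0669), and BAG3 to GSTT2B (0.0238), EME1 (0.028), CYTOR (0.0334), TKT (0.0432) and UBL7-DT (0.0455). With 4 arrays in 2 groups this distance mostly orders genes by the size of their change. No gene other than the pair itself from the lists above was among the 5 nearest to any of the 4.

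The epithelial label was checked on 10 of 13 markers. EPCAM averaged 10.94 with verticillin A and 11.11 in control, and KRT18 averaged 10.44 with verticillin A and 10.37 in control. KRT19 rose (0.44 ± 0.09, limma adjusted p = 0.0493) and VIL1 fell (-0.62 ± 0.08, adjusted p = 0.0167). The colonic markers KRT20, CDX1, CEACAM5 and GPA33 were low in both groups, with means of 3.67 to 4.67 with verticillin A and 3.55 to 4.61 in control. CDX2 was higher than these, with means of 5.38 with verticillin A and 5.19 in control. KRT8 averaged 6.89 with verticillin A and 6.91 in control. Of 13 markers of immune, stromal, endothelial and muscle cells 5 were measured, at means of 3.48 to 4.78 with verticillin A and 3.42 to 4.67 in control. Of these 0 passed in limma, with 0 at an unadjusted p under 0.05. Among all 14884 genes 3.55% were called higher, 5.10% lower, and 3970 had an unadjusted p under 0.05.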

How the data were processed

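Total RNA of LS411N-5FU-R cells was converted to biotin-labelled cDNA for whole-transcript arrays, 1 per sample, per the labels' protocols. The deposited log2 values, 1 for each probe set on each array, were made by the authors with GCRMA, per the submitters' processing notes, which by default corrects background and quantile-normalizes. Neither version nor filters are stated there. The log2 scale was read from the deposited values, 2.60 to 14.47. The labels give 2 groups of 2 samples and no batch. Separate cultures are not stated, so p-values rest on the spread between these samples alone, possibly a technical one. The number of arrays limits the precision.

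Of 53617 probe sets, 16098 are named by the platform annotation, all with 1 gene, and 37519 are unnamed here. A gene is called measured where a named probe set carries its symbol. Listed genes that are not measured may be among the unnamed probe sets. Symbols were updated by gene identifier through the RefSeq gene table of GRCh38.p14 (16098 matched), which also gave gene order. Where probe sets shared a gene, the one with the highest mean stood for it, which left 14884 genes. Limma 3.58.1 in R 4.3.3 (lmFit, eBayes; 2 residual and 3.43 prior degrees of freedom) was fitted to all of them with treatment as its factor, without filtering. Adjusted p means limma's p-value, Benjamini-Hochberg adjusted over all 14884 genes, with a threshold of 0.05, and "rose", "fell" and "passed" refer to it. A log2 change is the verticillin A mean minus the control mean, with its moderated standard error (SE). The fit was also run on data simulated under its own assumptions, which cannot show whether the spread between these samples is technical. Upstream sequences were taken from the RefSeq start site table of GRCh38.p14 and aligned with Biopython 1.88.

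The 4 genes, the gene lists and the naming rule were chosen with earlier results of these data known. The rule takes the 4 genes, the HSP70, BAG and heat shock factor families, up to 4 passing genes of each other list (or 2 where none passed), the 5 nearest profiles and the 3 nearest measured genes on each side. The text names a part of the last. It also names genes beyond the rule in the HSP90, BAG3 partner and heat-responsive lists, with their values known. Alternatives were quantile normalization, median centring, averaging of probe sets, leaving out the dimmest 50% of genes, a mean-variance trend, a replicate block, all probe sets tested, and leaving out each array.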

Additional observations from a re-analysis of the deposited data

How the results depend on the processing

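HSPA1A, HSPA1B, HSPH1 and BAG3 were higher with verticillin A under each of the 10 alternatives run for them. Leaving out single arrays gave log2 changes of 1.19 to 1.41 for HSPA1A, 1.16 to 1.42 for HSPA1B, 0.71 to 0.73 for HSPH1 and 0.63 to 0.71 for BAG3. The other alternatives gave 1.30 to 1.34, 1.26 to 1.33, 0.72 to 0.76 and 0.67 to 0.71. HSPH1 moved beyond its spread between replicates only with median centring (0.76), which shifted all genes alike. The number of called genes depended on the setting. The main 528 higher and 759 lower became 1070 and 1329 with the dimmest 50% left out, 1067 and 1361 with a mean-variance trend and 20 and 29 with all probe sets tested. Leaving out single arrays gave 0 to 52 higher and 0 to 105 lower, with 0 in limma without either control array (3715 and 3528 genes at an unadjusted p under 0.05). Leaving out a verticillin A array, which leaves as many residual degrees of freedom, gave 52 higher and 87 lower without replicate 1 and 48 and 105 without replicate 2, and the cause of the difference was not tested.

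The replicate numbers are not stated to pair the samples. Deviations from the group means correlated at 0.0124 between samples of the same number, over genes. With the replicate block, 228 genes were higher and 364 lower, and 1 of the 11 other HSP70 and HSP110 genes, 3 of the 10 HSP90 genes and 5 of the 13 heat-responsive genes passed, where HSPA4L, HYOU1, PPID, CDC37, DEDD2, IER5, MRPL18 and KRT19 lost their calls. 

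Among the 11 HSP70 and HSP110 genes the main 3 calls became 6 with the dimmest 50% left out and 7 with the trend. HSPA1L, HSPA2, HSPA6, HSPA7 and HSPA12B were not tested with the dimmest 50% left out. Calls rose over all genes too in these settings, to 1070 higher and 1329 lower and to 1067 and 1361. The HSF group had 1 call (HSBP1) with quantile normalization, median centring, the dimmest 50% left out and the trend. The HSP90 group had 7 calls with the dimmest 50% left out, 6 with the trend and 0 without any single array, and leaving out single arrays gave the heat-responsive list 0 to 4 calls and the BAG3 partners 0. The BAG3 partners had 2 calls with the dimmest 50% left out, MAP1LC3B lower and SQSTM1 higher. The small heat shock proteins had 1 call with the trend. Genes near 0 changed sign. With median centring HSF2BP had 0.034 and TEX26 0.025. Leaving out single arrays gave -0.35 to 0.34 for HSF2BP, -0.24 to 0.0091 for HSBP1L1, -0.13 to 0.043 for TRAP1, -0.0021 to 0.066 for RBM23, -0.033 to 0.0051 for TEX26, -0.027 to 0.056 for TIAL1 and -0.097 to 0.016 for INPP5F. Where no cause is given by the construction of a setting, the cause was not tested.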
